A study of Homo sapiens with 12 samples.

Results

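Fucosyltransferases add fucose to sugar chains, and 9 of them were described here together with B4GALT6, a galactosyltransferase that makes lactosylceramide. The 10 genes were FUT1, FUT2, FUT3, FUT4, FUT6, FUT7, FUT8, FUT9, POFUT1 and B4GALT6, taken by symbol from the 11963 genes measured on the arrays. They were chosen by measured values of these arrays, because FUT1 rose mainly in cystine-deprived cells with VHL and because FUT9 was higher with VHL, and B4GALT6 was already known from these arrays for a large fall in deprived VHL cells. The values behind those choices are therefore given as a description, with no test.

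Fucosyltransferases use GDP-fucose as donor and differ in the place they fucosylate. FUT1 and FUT2 put fucose on a terminal galactose and make the H antigen, the precursor of blood groups A and B, while FUT3, FUT4, FUT6, FUT7 and FUT9 put it on N-acetylglucosamine within the chain and make Lewis antigens. FUT8 alone fucosylates the core of N-glycans, and POFUT1 puts fucose directly on EGF-like repeats of Notch and other proteins. In mice, FUT9 makes the Lewis x of the kidney. B4GALT6 and B4GALT5 galactosylate glucosylceramide, the step from which gangliosides and globosides are built.

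RCC4 is an established line from a clear cell renal carcinoma without functional VHL, the protein that marks hypoxia-inducible factors for degradation. The 12 arrays fell into 4 groups of 3, namely VHL-reconstituted cells (VHL) in cystine-deprived DMEM, VHL cells in full DMEM (control medium), RCC4 Vec cells (Vec) in cystine-deprived DMEM and Vec cells in control medium, each exposed for 6 h. Serum was 10% in both media and is described as dialysed only for the deprived one, so cystine and dialysis of the serum cannot be told apart. The labels call replicates biological without naming separate cultures and do not say whether a line is 1 clone, so p-values measure the spread between these samples. Because VHL state and line coincide, VHL and other differences between the lines cannot be told apart.

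Values are log2 expression values of a probe set, and a difference of 1 is 2-fold. EGLN3, a prolyl hydroxylase induced by hypoxia-inducible factors, averaged 5.54 in VHL cells and 8.64 in Vec cells in deprived medium, and 5.47 and 8.71 in control medium. CHAC1, an amino acid response gene, rose in deprived medium by 2.52 ± 0.10 in VHL cells and by 2.68 ± 0.10 in Vec cells (SE of the fit, limma adjusted p = 3.38e-09 and 4.15e-09). Of the 9 kidney cell markers measured, 8 had means over the 12 arrays from 9.49 for KRT19 to 14.23 for VIM, and LHX1 lay near background at 6.21, while 7 blood and endothelial markers lay between 4.38 for PTPRC and 6.98 for HBB. The mean of the kidney cell markers ran from 10.59 to 10.66 in VHL and from 10.83 to 10.90 in Vec arrays. In deprived medium 5 markers were called lower and 1 higher in VHL cells, against 23% and 24.2% of all genes. In control medium 3 were lower and 0 higher, against 23% and 23.1% of all genes. KRT19, a keratin, was lower in VHL cells, with a difference of -1.36 ± 0.06 in control medium (limma adjusted p = 1.36e-09). Whether these marker differences bear on the genes described here was not tested. Probe sets of 19 genes not expected in kidney cells ranged from 4.07 to 6.98 with a 90th percentile of 6.18, so values in this range cannot be told from background signal. HBB and CD3E are both in this list and among the blood and endothelial markers, and HBB sets the top of the range. The place of those markers within the range is therefore partly fixed.

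In VHL cells FUT1 had 6.91, 6.57 and 6.61 in deprived medium, against 5.40, 5.50 and 5.57 in control medium. In Vec cells it had 5.48, 5.28 and 5.71 in deprived medium, against 5.26, 5.33 and 5.31 in control medium. The 3 arrays of deprived VHL cells stood above the other 9, whereas the media overlapped in Vec cells. The change on deprivation was 1.21 ± 0.10 in VHL cells, or 2.31-fold, and 0.19 ± 0.10 in Vec cells (SE of the fit, n = 3 per group). The Vec value became 0.295 without Vec deprived replicate 2 and 0.0773 without Vec deprived replicate 3. The VHL response exceeded the Vec response by 1.02, with a 95% interval from 0.70 to 1.34. Ranked over all 11963 genes, the FUT1 rise in VHL cells was number 18 and the difference of responses number 3 from the top, both of which follow from how the gene was picked.

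In control medium VHL minus Vec cells gave 0.19 ± 0.10 (95% interval from -0.03 to 0.42, limma adjusted p = 0.156), although the 3 VHL arrays lay above the 3 Vec arrays. FUT1 was not picked for that comparison, but its arrays also enter the deprivation responses that FUT1 was picked for. The p-values of that comparison are therefore not free of the choice. With only the arrays of that comparison in the fit, limma called it (adjusted p = 0.0224). In deprived medium VHL cells were higher by 1.21, with no test. FUT1 has 1 probe set, 206109_at, and its values in deprived VHL cells exceeded the 90th percentile of the genes not expected in kidney cells, 6.18, but not the highest of them, HBB at 6.98. All its other values lay below that percentile.

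**Figure D1:**
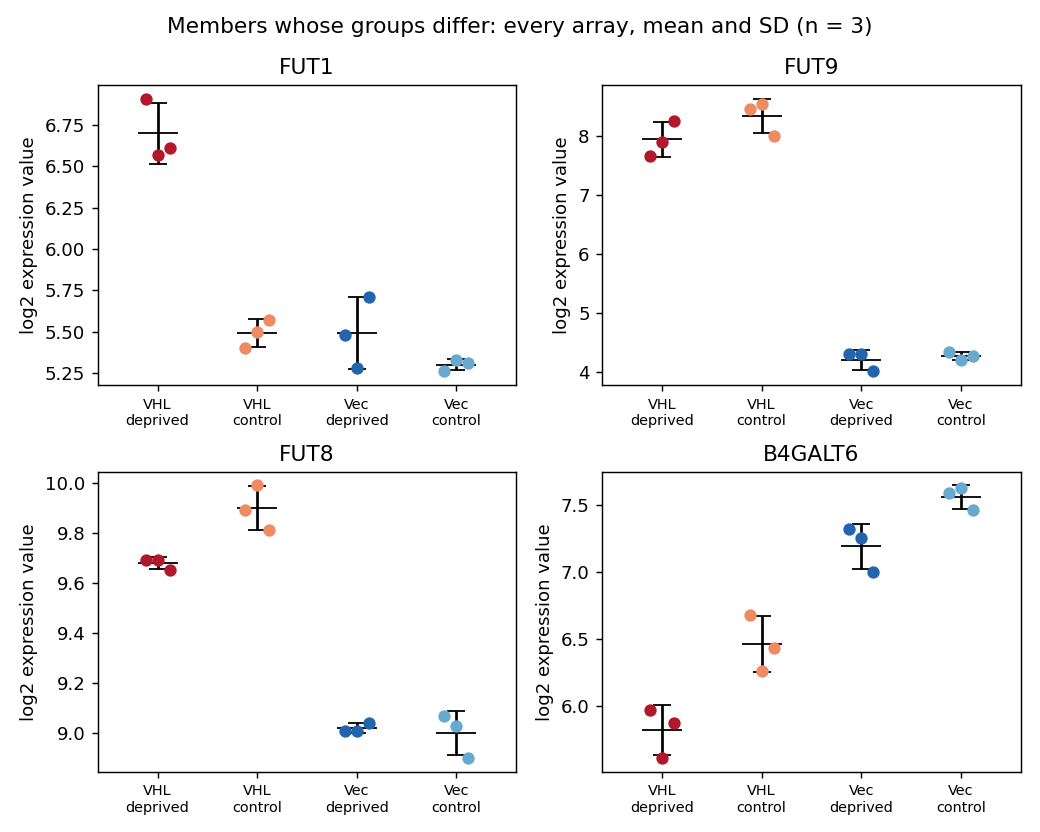
Log2 expression value (vertical axes) of FUT1, FUT9, FUT8 and B4GALT6 in each of the 12 arrays by group, with points for arrays, horizontal bars for means and whiskers for the SD (n = 3). FUT1 lies at 6.57 to 6.91 in deprived VHL cells and at 5.26 to 5.71 elsewhere, FUT9 and FUT8 are higher in VHL than in Vec cells, and B4GALT6 is lower in VHL than in Vec cells.

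Because FUT1 moved with deprivation in VHL cells, the 250 bases before each of its annotated starts are shown, together with those of FUT9, which differed between the lines. Sequences are from RefSeq on GRCh38.p14, read 5′ to 3′ on the gene's strand, and 9 of the 10 genes matched a window, 12 windows in all. Capitals mark matches to TGATGNAA, the core of the C/EBP-ATF response element found in amino acid response genes, and to ACGTG or GCGTG, the core of the hypoxia response element, all searched on both strands.
FUT1, first start, chr19:48755359-48755608, minus strand: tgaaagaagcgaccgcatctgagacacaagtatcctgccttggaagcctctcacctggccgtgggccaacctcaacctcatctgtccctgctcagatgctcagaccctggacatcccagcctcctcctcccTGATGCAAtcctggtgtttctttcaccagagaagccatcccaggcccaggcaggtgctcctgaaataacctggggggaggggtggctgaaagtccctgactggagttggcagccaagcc
FUT1, second start, chr19:48752642-48752891, minus strand: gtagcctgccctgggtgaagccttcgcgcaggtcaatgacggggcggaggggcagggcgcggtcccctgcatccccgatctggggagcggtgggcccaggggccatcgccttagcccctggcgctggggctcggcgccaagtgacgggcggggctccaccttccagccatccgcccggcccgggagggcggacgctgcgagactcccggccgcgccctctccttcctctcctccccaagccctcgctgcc
FUT9, chr6:96015724-96015973, plus strand: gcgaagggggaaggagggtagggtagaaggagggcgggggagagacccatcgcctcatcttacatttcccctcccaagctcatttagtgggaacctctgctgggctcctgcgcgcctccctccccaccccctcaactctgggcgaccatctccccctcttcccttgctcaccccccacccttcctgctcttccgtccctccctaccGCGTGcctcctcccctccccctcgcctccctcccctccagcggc

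The first FUT1 window holds TGATGCAA from 119 to 112 bases before the start, and the second holds none of the motifs. TGATGNAA occurs in 3.14% of all 35116 windows of this length in the table. It occurs also in 1 of the 3 FUT8 windows, on the opposite strand. FUT9 holds GCGTG from 44 to 40 bases before its start, and ACGTG or GCGTG occurs in 43.2% of all windows. ACGTG or GCGTG occurs also in windows of FUT3, FUT4, FUT6, FUT8 and POFUT1. These are letter matches in the reference sequence, and which start RCC4 cells use was not analysed here.

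FUT2, the H-antigen enzyme of secretory epithelia, is on chromosome 19 like FUT1 and stayed between 5.65 and 6.04 on its main probe set over all 12 arrays. In deprived medium it changed by -0.09 ± 0.08 in VHL cells (95% interval from -0.27 to 0.09) and by -0.03 ± 0.08 in Vec cells (limma adjusted p = 0.527 and 0.911). These values are within the background range, so they cannot show that the transcript was unchanged.

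FUT9, a Lewis x enzyme, had 7.66, 7.90 and 8.25 in deprived and 8.46, 8.54 and 8.0 in control medium in VHL cells. In Vec cells it had 4.30, 4.30 and 4.01 in deprived and 4.34, 4.20 and 4.27 in control medium. All 6 VHL arrays were at least 3 log2 units above all 6 Vec arrays, whose values are near the low end of the background range. VHL minus Vec cells was 3.73 ± 0.15 in deprived medium, or 13.3-fold, and 4.06 ± 0.15 in control medium, or 16.7-fold, both set against background values in Vec cells.

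That difference rested on 1 of 3 FUT9 probe sets, 214046_at. The other two, 216185_at and 207696_at, stayed between 3.81 and 4.42 in every array. For 216185_at VHL minus Vec cells was 0.00 in deprived and 0.06 in control medium, and for 207696_at it was 0.09 and 0.30. Probe set 214046_at represents FUT9 because its mean over the 12 arrays was highest, at 6.187 against 4.304 and 3.942. That mean is highest only through the VHL arrays, where FUT9 is high. In Vec cells 214046_at averaged 4.20 and 4.27 in deprived and control medium, and 216185_at 4.32 and 4.26. Over the mean of the 3 probe sets the FUT9 difference was 1.28 in deprived and 1.48 in control medium. Which stretch of the transcript each of them binds was not analysed here.

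Within VHL cells FUT9 changed on deprivation by -0.40 ± 0.15 (95% interval from -0.73 to -0.07, limma adjusted p = 0.112), and the media overlapped. Without VHL deprived replicate 3 this became -0.56 (limma adjusted p = 0.0356), and without VHL control replicate 3 it became -0.56 (0.0257). In Vec cells the change was -0.07 ± 0.15 (limma adjusted p = 0.878). The SE of these changes rests on the spread of all 4 groups. The SD of FUT9 was 0.299 in deprived and 0.29 in control VHL cells, against 0.168 and 0.0702 in Vec cells. For VHL cells the SE, interval and p-values may therefore understate the spread. The same arrays enter the differences between lines that FUT9 was picked for, so these p-values are not free of the choice.

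**Figure D2:**
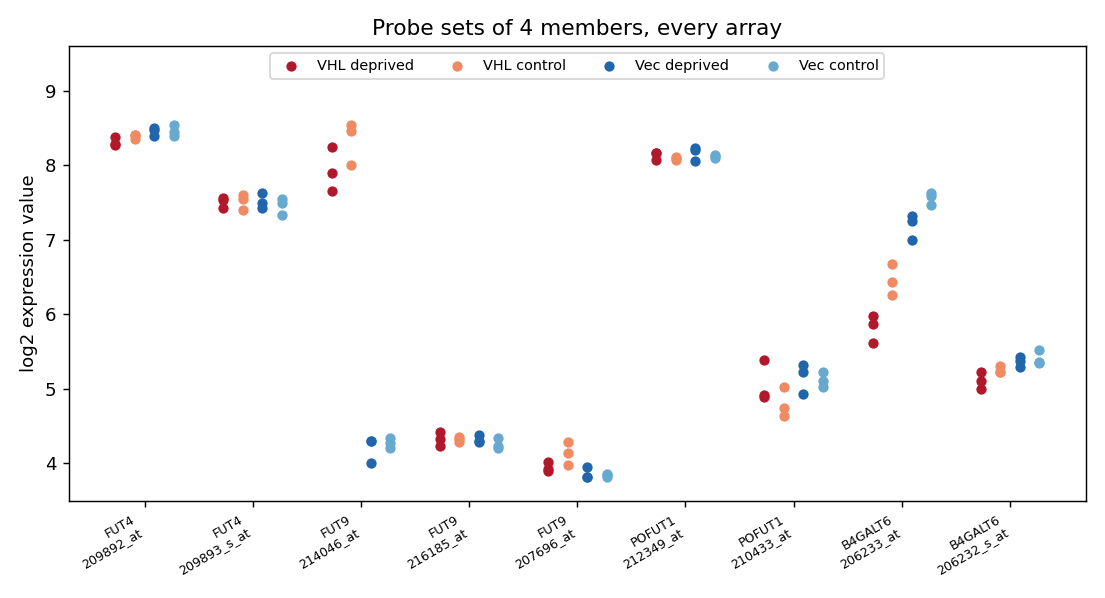
Log2 expression value (vertical axis) of every probe set of FUT4, FUT9, POFUT1 and B4GALT6 (horizontal axis), with 1 point per array coloured by group. Only 214046_at of the 3 FUT9 probe sets separates VHL from Vec arrays widely, and the second B4GALT6 probe set runs from 5.0 to 5.52.

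FUT4, another Lewis x enzyme, had 8.38, 8.27 and 8.28 in deprived VHL cells, against 8.47, 8.39 and 8.5 in deprived Vec cells. The groups did not overlap, narrowly, and VHL minus Vec cells was -0.15 ± 0.05 (limma adjusted p = 0.0386). The call was lost without VHL deprived replicate 2 or 3 or Vec deprived replicate 1 or 3 (limma adjusted p from 0.0925 to 0.123) and on the second probe set (-0.01, limma adjusted p = 0.90). In control medium the difference was -0.07 ± 0.05 (limma adjusted p = 0.350).

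FUT3, FUT6 and FUT7 were not called in any of the 5 comparisons. FUT3 and FUT6 are closely related Lewis enzymes, so the probe sets ending in _x_at or _s_at that measure them may bind each other's transcripts. FUT7 completes sialyl Lewis x, a ligand of selectins on leukocytes. The main probe set of FUT3 lay between 6.48 and 6.97 over all arrays, that of FUT6 between 6.31 and 6.67 and that of FUT7 between 6.28 and 6.60, all with overlapping groups. The largest size among their 12 differences between media or lines was -0.14 ± 0.09, for FUT3 in VHL against Vec cells in control medium (limma adjusted p = 0.238). Other probe sets of these genes were as low as 4.11. The values of all these probe sets are within the background range, whose highest gene is HBB at 6.98. They therefore cannot show that the transcripts of FUT3, FUT6 and FUT7 were unchanged.

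FUT8, which makes core fucose, was higher in VHL than in Vec cells in both media. It had 9.69, 9.69 and 9.65 in deprived VHL cells, against 9.01, 9.01 and 9.04 in deprived Vec cells. In control medium it had 9.89, 9.99 and 9.81 in VHL cells, against 9.07, 9.03 and 8.90 in Vec cells. The lines did not overlap in either medium. VHL minus Vec cells was 0.66 ± 0.06 in deprived medium, 1.58-fold (limma adjusted p = 4.61e-07), and 0.90 ± 0.06 in control medium, 1.86-fold (limma adjusted p = 2.52e-08).

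On deprivation FUT8 fell by 0.22 ± 0.06 on the log2 scale in VHL cells (limma adjusted p = 0.0267), where the 3 deprived arrays lay below the 3 control arrays. The call was lost when any 1 of 5 arrays was left out, all but VHL control replicate 3 (limma adjusted p from 0.0565 to 0.105). In Vec cells the change was 0.02 ± 0.06 (limma adjusted p = 0.919). The responses of the lines differed by -0.24 ± 0.08 (95% interval from -0.41 to -0.06), which limma did not call (adjusted p = 0.360). FUT8 has 1 probe set, 203988_s_at, whose suffix marks possible binding of several transcripts.

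POFUT1, the O-fucosyltransferase of Notch, lay between 8.06 and 8.23 over all 12 arrays on its main probe set. Its differences ranged from -0.03 to 0.05 in the 4 comparisons of media or lines (limma adjusted p from 0.653 to 0.753), each with an SE of 0.05. The 95% intervals reached from -0.14 to 0.16 at most. The second probe set, 210433_at, lay between 4.63 and 5.38, within the background range, and gave 0.27 ± 0.14 on deprivation of VHL cells and -0.33 ± 0.14 between the lines in control medium.

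B4GALT6 had 5.97, 5.61 and 5.87 in deprived and 6.68, 6.26 and 6.43 in control medium in VHL cells. In Vec cells it had 7.32, 7.25 and 7.0 in deprived and 7.59, 7.63 and 7.46 in control medium. No 2 of the 4 groups overlapped, with deprived VHL cells lowest and control Vec cells highest. VHL minus Vec cells was -1.37 ± 0.12 in deprived medium, given with no test. In control medium it was -1.10 ± 0.12 (limma adjusted p = 3.52e-06). The VHL control arrays also enter the fall on deprivation that B4GALT6 was known for, so that p-value is not free of the choice. All 6 VHL values lie within the range of genes not expected in kidney cells, and the 3 from deprived medium below its 90th percentile, so these differences are set against values that cannot be told from background.

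On deprivation B4GALT6 changed by -0.64 ± 0.12 in VHL cells, given with no test, and by -0.37 ± 0.12 in Vec cells (95% interval from -0.62 to -0.12, limma adjusted p = 0.109). The difference of these responses was -0.27, with a 95% interval from -0.63 to 0.08, and leaving out 1 array moved it between -0.163 (without VHL control replicate 1) and -0.372 (without VHL control replicate 2). On its second, dimmer probe set, 206232_s_at, VHL minus Vec cells in control medium was -0.16 (limma adjusted p = 0.0690) and the change on deprivation in VHL cells was -0.13. With the mean of both probe sets the change in VHL cells was -0.39 and the difference between lines in deprived medium -0.81.

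**Figure D3:**
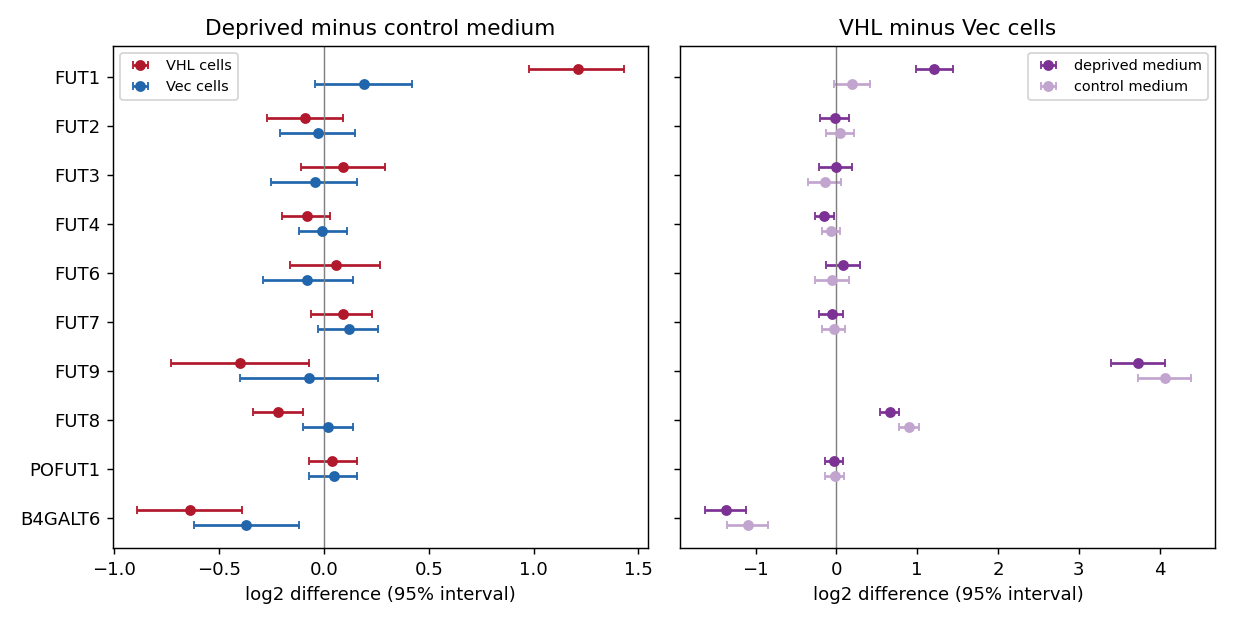
Log2 differences with 95% confidence intervals (horizontal axes) for the 10 genes, deprived minus control medium on the left and VHL minus Vec cells on the right. FUT1 rises by 1.21 in VHL cells, FUT9 and FUT8 lie above 0 and B4GALT6 below 0 between the lines, and the intervals of FUT2, FUT3, FUT4, FUT6, FUT7 and POFUT1 all lie between -0.35 and 0.29.

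FUT1 and B4GALT6, given with no test on deprivation in VHL cells, are not among the calls counted for it. On deprivation in VHL cells 1 of 8 tested members was called, FUT8, with 0 higher (2 at an unadjusted limma p under 0.05), while 11.6% of all genes were called, 6.16% higher and 5.48% lower. With arrays centred on their medians that split of 737 higher and 655 lower became 550 and 873. The groups of 3 of the 10 members did not overlap, FUT8 and the picked FUT1 and B4GALT6, against 30.6% of all genes. The median size of the change was 0.09 over the members and 0.08 over all genes. Both member values are partly fixed by how the members were picked. On deprivation in Vec cells limma called 0 of 9 tested members (1 at an unadjusted p under 0.05, B4GALT6), against 4.18% of all genes, 2.11% higher and 2.06% lower. There the groups of 1 of 10 members did not overlap, against 22.7% of all genes. For the difference of the responses limma called 0 of 8 (1 at an unadjusted p under 0.05, FUT8), against 0.134% of all genes.

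Between the lines calls were common over all genes. In deprived medium 1 of 7 tested members was higher, FUT8, and 1 lower, FUT4, against 47.2% of all genes called, 24.2% higher and 23% lower. In control medium 1 of 9 was higher, FUT8, and 1 lower, B4GALT6, against 46.1% of all genes, 23.1% higher and 23% lower. The 9 include FUT1 and B4GALT6, which were picked for changes that share arrays with that comparison. Groups did not overlap for 5 of 10 members in deprived and 4 of 10 in control medium, against 54.2% and 53.2% of all genes. The 5 include FUT1, FUT9 and B4GALT6, and the 4 include FUT9, all given with no test there. These member shares are therefore partly fixed by how the members were picked. The median size of the difference was 0.11 over the members and 0.16 over all genes in deprived medium, and 0.11 and 0.15 in control medium. Comparisons that use the same group share its arrays, so the values of a gene in them are not independent.

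The donor pathway of the fucosyltransferases was measured through 5 of 8 listed genes, and 3 were called between the lines in each medium. Over all genes 47.2% were called in deprived and 46.1% in control medium. GFUS, which completes GDP-fucose from GDP-mannose, was lower in VHL than in Vec cells, with differences of -0.47 ± 0.05 in deprived medium (limma adjusted p = 5.23e-06) and -0.49 ± 0.05 in control medium (3.08e-06). FPGT, which makes GDP-fucose from salvaged fucose, was higher by 0.47 ± 0.07 in deprived and 0.43 ± 0.07 in control medium, and FUCA1, the lysosomal fucosidase, by 0.59 ± 0.06 in each. GMDS and the Golgi transporter SLC35C1 gave 0.12 and -0.02 in control medium and were not called, both named after their values were seen. On deprivation limma called 0 of the 5 in either line, with 0 also at an unadjusted p under 0.05. The shares of all genes called on deprivation were 11.6% in VHL and 4.18% in Vec cells. The remaining fucosyltransferases measured were FUT5 and POFUT2, and POFUT2 was called higher in VHL cells in deprived medium (0.14 ± 0.05, limma adjusted p = 0.0356) and gave 0.06 ± 0.05 in control medium, which was not called. The call was lost in 8 of 14 alternative settings, among them leaving out VHL deprived replicate 1, 2 or 3 or Vec deprived replicate 3. With probe sets ending in _x_at or _s_at left out, POFUT2 changed sign (-0.0422).

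The enzymes next to B4GALT6 in glycosphingolipid synthesis moved both ways between the lines. UGCG, which makes the glucosylceramide that B4GALT6 uses, gave VHL minus Vec differences of -0.47 ± 0.05 in deprived medium (limma adjusted p = 2.48e-06) and -0.50 ± 0.05 in control medium (1.42e-06). ST3GAL5, which sialylates lactosylceramide to GM3 and is named after its values were seen, gave -0.53 ± 0.11 in deprived medium (limma adjusted p = 0.00124) and -0.69 ± 0.11 in control medium (1.54e-04). B4GALT5, the other lactosylceramide synthase, gave 0.06 ± 0.06 in deprived medium and 0.16 ± 0.06 in control medium (limma adjusted p = 0.401 and 0.0282). The call in control medium was lost without VHL control replicate 1, 2 or 3 or Vec control replicate 2. B4GALNT1, which builds the further gangliosides and is named after its values were seen, gave 0.19 ± 0.08 in deprived medium (limma adjusted p = 0.0504) and 0.24 ± 0.08 in control medium (0.0170). Its call in control medium was lost without VHL control replicate 2 or 3 or Vec control replicate 2, and in deprived medium it was called without VHL deprived replicate 2 or Vec deprived replicate 1 or 3. GALC, the lysosomal galactosylceramidase, was higher in VHL cells by 2.16 ± 0.08 in deprived medium and 2.15 ± 0.08 in control medium. Its means were 6.29 and 6.24 in VHL cells and 4.13 and 4.09 in Vec cells, all within the background range. GM2A, the activator of GM2 breakdown, was higher by 0.72 ± 0.05 and 0.64 ± 0.05. With the probe sets of a gene averaged, GALC gave 1.31 and 1.29 and GM2A 0.314 and 0.225, all still called.

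Of the 17 measured glycosphingolipid enzymes, 5 were higher and 3 lower in VHL cells in deprived medium, and 7 and 3 in control medium, with medians of 0.10 and 0.08. Over all genes 47.2% and 46.1% were called in either direction. On deprivation limma called 0 of 17 in either line (4 in VHL and 1 in Vec cells at an unadjusted p under 0.05). Over all genes 11.6% were called on deprivation in VHL and 4.18% in Vec cells. Of the 6 other beta-1,4-galactosyltransferases, VHL minus Vec cells in control medium was -0.62 ± 0.05 for B4GALT2 and 0.47 ± 0.06 for B4GALT3, both called, and 0 of 6 were called on deprivation (1 in VHL and 2 in Vec cells at an unadjusted limma p under 0.05).

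**Figure D4:**
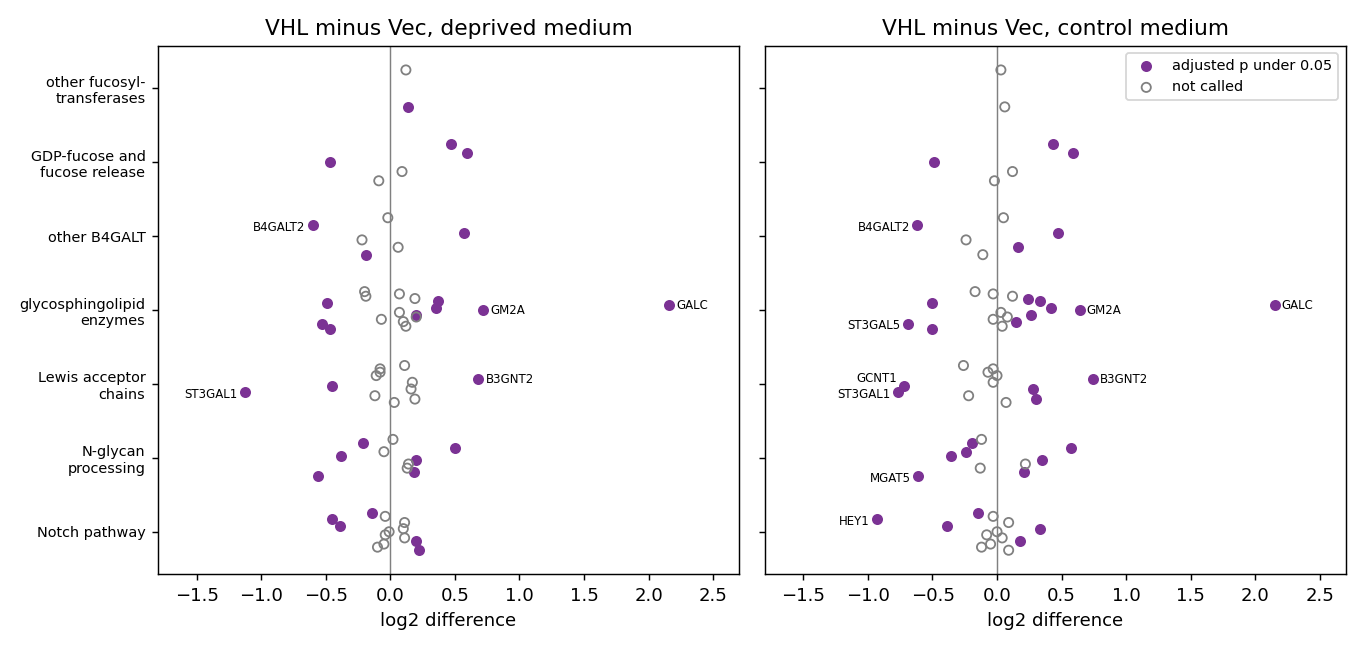
Log2 difference of VHL minus Vec cells (horizontal axes) for the genes of 7 lists (rows), in deprived medium on the left and control medium on the right, with filled points for genes called at an adjusted p under 0.05. Points lie on both sides of 0 in most rows, and called genes at 0.6 or beyond are named.

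Of 12 enzymes of the chains that Lewis and H enzymes fucosylate, 1 was higher and 2 lower in VHL cells in deprived medium, and 3 and 2 in control medium. Over all genes 47.2% and 46.1% were called in either direction. B3GNT2, which extends poly-N-acetyllactosamine, was higher by 0.74 ± 0.07 in control medium (limma adjusted p = 2.17e-06). ST3GAL1, which caps O-glycans with sialic acid, gave -0.77 ± 0.06 there (limma adjusted p = 1.61e-07), and GCNT1, which branches O-glycans, gave -0.72 ± 0.08 (8.15e-06). On deprivation B3GNT2 fell in VHL cells by 0.30 ± 0.07 (limma adjusted p = 0.0202), and in Vec cells ST3GAL1 rose by 0.32 ± 0.06 (0.00900) and GCNT1 fell by 0.38 ± 0.08 (0.0225). The B3GNT2 call was lost without VHL deprived replicate 3 or VHL control replicate 1 or 2, and the GCNT1 call without Vec deprived replicate 1 or 3 or Vec control replicate 1 or 2. GCNT1 averaged 7.15 in control Vec cells. Its other group means, 6.32 and 6.44 in VHL cells and 6.77 in deprived Vec cells, lay within the background range.

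Among 10 enzymes of the N-glycans on which FUT8 acts, MGAT2, a branching enzyme, fell on deprivation by 0.37 ± 0.04 in VHL cells (limma adjusted p = 2.06e-04) and by 0.22 ± 0.04 in Vec cells (0.0166). The Vec call was lost without Vec deprived replicate 1 or 2 or Vec control replicate 2 or 3, each left out alone. It was also lost with only the arrays compared and, separately, with its probe sets averaged, where MGAT2 gave -0.193 in VHL cells and -0.118 in Vec cells. Between the lines 3 were higher and 3 lower in deprived medium and 3 and 4 in control medium. Over all genes 47.2% and 46.1% were called in either direction. In control medium MGAT5, which adds a further branch, was lower in VHL cells, with a difference of -0.61 ± 0.05 (limma adjusted p = 4.35e-07). MAN2A1, a Golgi mannosidase, was higher there by 0.57 ± 0.05 (limma adjusted p = 2.66e-07). With probe sets averaged MGAT5 gave -0.331 there, still called.

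Of 13 genes of the Notch pathway, in which POFUT1 acts, 1 was called on deprivation of VHL cells and 0 of Vec cells (1 at an unadjusted limma p under 0.05). Over all genes 11.6% and 4.18% were called on deprivation. HEY1, a Notch target, rose by 0.57 ± 0.06 in VHL cells (limma adjusted p = 9.29e-05) and gave 0.09 ± 0.06 in Vec cells, a difference of 0.48 ± 0.09 (0.0727). That difference was called without VHL control replicate 2 (limma adjusted p = 0.0401) and with a replicate block (0.0407). Between the lines 2 of the 13 were higher and 3 lower in VHL cells in each medium, against 47.2% and 46.1% of all genes called. In control medium HEY1 was lower in VHL than in Vec cells, with a difference of -0.93 ± 0.06, as was JAG1, a Notch ligand, with -0.39 ± 0.07. JAG2, another ligand, was higher there by 0.33 ± 0.09 and the receptor NOTCH2 by 0.18 ± 0.05 (limma adjusted p = 0.00840 and 0.00650). In control medium JAG2 averaged 7.11 in VHL cells and 6.78 in Vec cells, the latter within the background range. LFNG, which extends O-fucose on Notch and is named after its values were seen, gave -0.01 in deprived and 0.00 in control medium.

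The genes with the group means most like those of FUT1, each profile centred on its mean over the 4 groups, were TXNIP, an inhibitor of thioredoxin, with a root-mean-square difference of 0.101, ECM2, a matrix protein, with 0.201, and CBS, the first enzyme of transsulfuration, with 0.209. TXNIP averaged 11.87 in deprived and 10.76 in control medium in VHL cells, and 10.91 and 10.49 in Vec cells. CBS had group means from 5.56 to 6.92, all within the background range. ECM2 averaged 7.20 in deprived VHL cells, and its other group means, from 5.87 to 6.46, lay within that range. For FUT9 they were RGS5, a regulator of G-protein signalling, at 0.237, SLC34A2, a phosphate transporter, at 0.27, and ALDH2, an aldehyde dehydrogenase, at 0.285. For B4GALT6 they were CDC25A, a cell cycle phosphatase, at 0.0439, SLIT3, a guidance ligand, at 0.0844, and CERK, the ceramide kinase, at 0.0896. Each likeness rests on 4 group means of 3 arrays and is a description.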

How the data were processed

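RNA of 12 samples was measured on single-colour arrays, and biotin-labelled targets were made with the MessageAmp Premier kit, per the labels' protocols. The deposited values are on a log2 scale, read from the values, which run from 3.26 to 14.79 with array medians from 7.12 to 7.18. How the authors normalized them is not given in the sources used here, and no detection call, batch or scan date was used.

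Of 22215 probe sets, 19064 name 1 gene, 1043 several and 2108 none. Symbols were updated through RefSeq (GRCh38.p14) for 19052. For each of 11963 genes the probe set of highest mean over the arrays was used. The 10 members have 22 probe sets. Each group got 1 mean in a fit across all genes with limma 3.58.1 (R 4.3.3, 8 residual degrees of freedom), with two-sided p-values adjusted by Benjamini-Hochberg over all 11963 genes. Called means an adjusted p under 0.05. The share of all genes at an unadjusted p under 0.05 was not computed, so counts at that threshold have no reference over all genes. The fit was tested on simulated data. Members and lists were chosen with earlier results of these data known.

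Named list genes are the up to 4 called with the smallest adjusted p for a list and comparison, at most 2 where none was called, and 3 genes of most similar group means for FUT1, FUT9 and B4GALT6. Not every gene this allows is printed. FUT5, GMDS, SLC35C1, ST3GAL5, B4GALNT1 and LFNG are named outside this rule, after their values were seen. Replicate numbers are shared between groups. Residuals of arrays with the same number correlated from -0.268 to 0.235 over 18 pairs, with a median of 0.0526. For other numbers they ran from -0.35 to 0.291 over 36 pairs, with a median of -0.0179. Samples were therefore not paired, although this does not show whether samples of a number were handled together. Alternatives were quantile normalization, median centring, averaging over the probe sets of a gene, single probe sets of the members, no probe sets ending in _x_at or _s_at, no genes at or under a mean of 6.18, a variance trend with robust moderation, only the arrays compared, a replicate block and each array left out.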

Additional observations from a re-analysis of the deposited data

How the results depend on the processing

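Of 780 recomputed member differences, 751 kept their direction where called and their side of the threshold, or moved by less than the residual SD where no test is given, and 0 called differences turned round. Exceptions were 15 lost calls (FUT8 on deprivation of VHL cells, FUT4 between lines in deprived medium and B4GALT6 on its second probe set), 3 gained calls (FUT9 and FUT1, as given above) and 11 shifts of FUT9 and B4GALT6 with the mean of the probe sets or other probe sets. FUT8 on deprivation of VHL cells was also lost with only the arrays compared (adjusted p = 0.0627), and FUT4 with quantile normalization (0.0782), the mean of its probe sets (0.270) and only the arrays compared (0.0606). FUT1 and FUT2 have no value without dim genes, nor FUT2, FUT3, FUT6 and FUT8 once probe sets with the suffix _x_at or _s_at are left out. FUT9 kept a value without dim genes only through its VHL arrays, with a mean of 6.187 against the limit of 6.181.

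Counts of called genes were 1392 for deprivation of VHL cells, 500 for Vec cells, 16 for the difference of responses and 5650 and 5520 between lines in deprived and control medium. With probe sets ending in _x_at or _s_at left out, which leaves fewer genes, they were 771, 233, 11, 3505 and 3427. With only the arrays compared they were 835 for deprivation of VHL cells and 311 for Vec cells. With a variance trend the difference of responses gave 45, and the cause was not tested. With each array left out they ran from 764 to 1302, 253 to 303, 11 to 16, 5226 to 5416 and 5085 to 5274. VHL deprived replicate 1 and VHL control replicates 1 and 2 (822, 764 and 849) and each of the 6 Vec arrays moved a count by over 1.5 times. With median centring deprivation of VHL cells gave 550 higher and 873 lower, against 737 and 655. The replicate block gave 1326, 434, 16, 5664 and 5517 and changed no member's call, while the HEY1 difference of responses (0.0407) and B4GALNT1 between lines in deprived medium (0.0283) became called. POFUT2 between lines in deprived medium turned to -0.0422 with probe sets of those suffixes left out, where another probe set represents it, and the cause was not tested.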
